A study of Homo sapiens with 5 samples.

Results

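Endothelial lipase (LIPG), the secreted lipase inhibitor ANGPTL4, adipose triglyceride lipase (PNPLA2), hormone-sensitive lipase (LIPE) and the carnitine palmitoyltransferase CPT1A are described here in MDA-MB-231, a human breast cancer cell line of the triple-negative type. These 5 of 10596 measured genes were chosen by name, and the most abundant transcript row stands for each. All 5 were found. LIPG and ANGPTL4 were chosen because earlier results of these libraries showed large differences in them, so their differences are a description and carry no test. The series silenced SET or CIP2A, endogenous inhibitors of the phosphatase PP2A, and its title sets this against the transcription factor MYC. The 5 libraries, 1 per group, came from cells with an siRNA against SET for 48 hours (siSET), an siRNA against CIP2A (siCIP2A), a control siRNA for 48 hours (siNT), OP449, a SET antagonist by the series' design text, at 1 µM for 12 hours, and PBS for 12 hours. No time stands in the sample label of siCIP2A, and the treatment protocol gives 48 hours for both silenced genes. All cells grew in medium with 5% fetal bovine serum.

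Lipases release fatty acids from stored or circulating lipid. Outside the cell, endothelial lipase cuts mainly the phospholipids of high-density lipoprotein, while ANGPTL4 is a secreted protein that inactivates lipoprotein lipase and is known as a target of PPAR receptors, hypoxia and glucocorticoids. Inside the cell, PNPLA2 takes the first fatty acid from the triglycerides of lipid droplets and LIPE takes the next. CPT1A, on the outer mitochondrial membrane, couples long-chain fatty acids to carnitine, the step that limits their entry into mitochondria for oxidation, and malonyl-CoA inhibits it.

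The values are scaled counts per RefSeq transcript, from which whole reads were recovered. The libraries held 3641329 (siSET) to 5602224 (siCIP2A) reads over the gene table, and a count of 0 allows 3.31 to 5.13 scaled counts. As each group is 1 library, no difference could be checked against replicates. Brackets hold the 95% exact interval of a log2 ratio that the recovered reads allow, which covers counting error alone and sets library against library. The transcripts of SET, CIP2A and MYC were not analysed here, so the silencing was not checked. Of the markers of a mesenchymal breast cancer line, VIM, CD44 and AXL stood at 13820 to 20867 scaled counts in all 5 libraries. CDH1 stood at 12.9 to 56.7, the progesterone receptor gene PGR was at 0 in all 5, and ERBB2, GATA3 and ESRP2 stood at 133 to 1179. Of 3 adipocyte markers, CIDEA was at 0 in all 5 libraries and PLIN1 and GPD1 stood at 0 to 7.73. The leukocyte markers PTPRC and ITGAM stood at 0 to 2.37, and CD68 at 1989 to 2401.

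The promoters of LIPG and ANGPTL4 are shown because these are the members with the widest range over the libraries, and in opposite directions. Each is 300 bases from RefSeq on GRCh38.p14, from 250 bases before the gene's start, written 5′ to 3′ on the plus strand, on which both genes lie. LIPG is at chr18:49561807-49562106 and ANGPTL4 at chr19:8363905-8364204. Capitals mark matches, on either strand, to any of 5 motifs searched: the E-box CACGTG, bound by MYC among others, the hypoxia element core ACGTG, which lies inside the E-box, the aryl hydrocarbon receptor core GCGTG, the sterol element TCACNCCAC and the nuclear receptor site AGGTCA, the repeated unit of PPAR elements.
LIPG: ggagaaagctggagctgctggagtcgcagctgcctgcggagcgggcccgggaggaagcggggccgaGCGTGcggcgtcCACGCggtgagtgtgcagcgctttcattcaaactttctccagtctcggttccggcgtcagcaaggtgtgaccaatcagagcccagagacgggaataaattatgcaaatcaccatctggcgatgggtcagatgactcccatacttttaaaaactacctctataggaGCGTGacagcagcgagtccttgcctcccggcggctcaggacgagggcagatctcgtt
ANGPTL4: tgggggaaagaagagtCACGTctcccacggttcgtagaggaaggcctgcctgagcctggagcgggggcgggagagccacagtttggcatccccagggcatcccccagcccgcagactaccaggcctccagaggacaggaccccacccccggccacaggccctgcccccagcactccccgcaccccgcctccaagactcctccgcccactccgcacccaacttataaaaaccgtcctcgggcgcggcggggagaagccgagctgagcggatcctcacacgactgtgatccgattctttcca
LIPG held 3 matches, all to GCGTG, beginning 184, 172 and 7 bases before the start, and 36.5% of 35116 RefSeq promoters hold at least 1. The share of promoters with 3 or more is not given, so whether 3 is unusual cannot be read from it. ANGPTL4 held 1 match, to ACGTG, 234 bases before the start, and 21.4% of promoters hold at least 1. Neither window held CACGTG, found in 7.26% of promoters, TCACNCCAC, found in 1.13%, or AGGTCA, found in 13.8%. A match is a description of letters and not of binding.

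LIPG, on the plus strand of chromosome 18 from 47088427 to 47119276 on hg19, stood at 313 scaled counts in siSET, 54.1 in siCIP2A, 197 in siNT, 108 in OP449 and 251 in PBS. These came from 183, 49, 166, 84 and 221 reads. The siSET library was the highest and siCIP2A the lowest, 5.79-fold apart, and each step in the order siSET, PBS, siNT, OP449, siCIP2A had a counting interval that excluded equality. The 2 controls stood next to each other in that order, with siSET above both and siCIP2A and OP449 below both.

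ANGPTL4, on the plus strand of chromosome 19 from 8429011 to 8439257 on hg19, ran almost in the reverse order. It stood at 18.8 scaled counts in siSET, 104 in siCIP2A, 47.4 in siNT, 165 in OP449 and 18.1 in PBS, from 11, 94, 40, 128 and 16 reads. OP449 was 9.09-fold above PBS, the lowest library. The steps from OP449 to siCIP2A, siNT and siSET had intervals that excluded equality, and siSET and PBS could not be told apart at this depth, with a log2 ratio of 0.05 [-1.20 to 1.25].

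**Figure D1:**
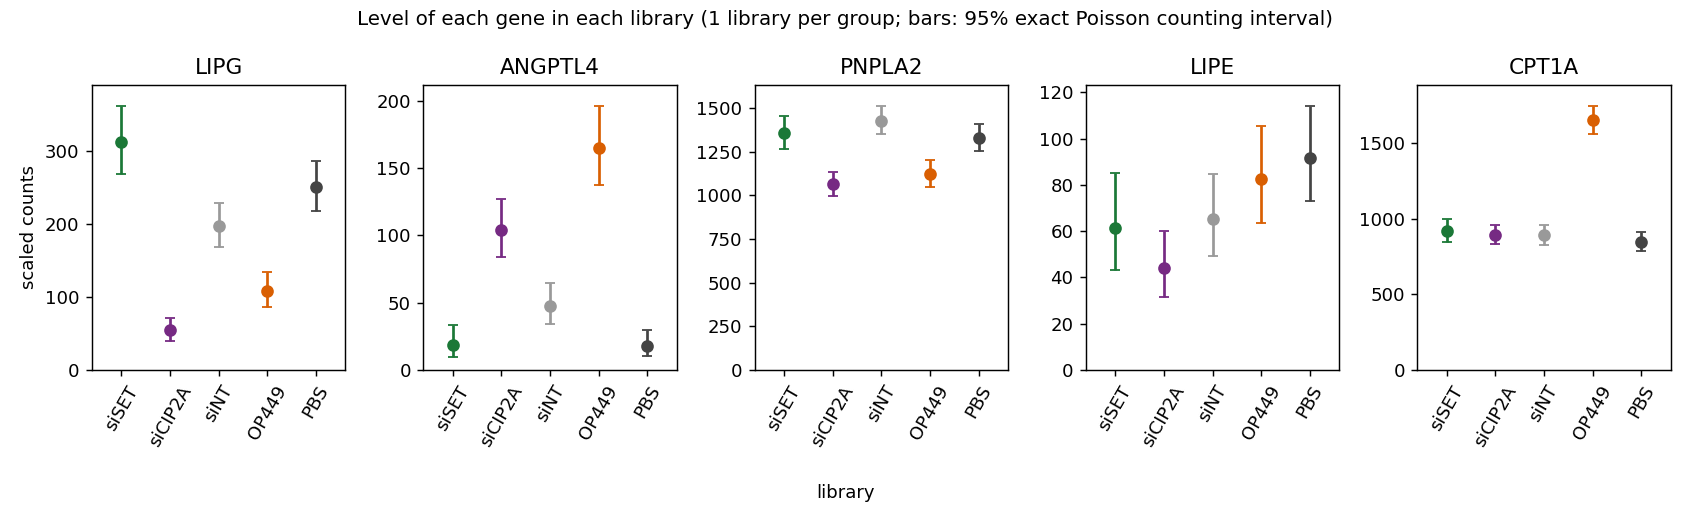
Scaled counts (linear axes from 0, one scale per gene) of the 5 genes in the libraries siSET, siCIP2A, siNT, OP449 and PBS, 1 library per group. Points are the deposited values and bars their 95% exact Poisson counting intervals. LIPG runs between 54.1 and 313 and ANGPTL4 between 18.1 and 165 in nearly opposite orders, while CPT1A stands apart in OP449 alone, at 1653.

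The intracellular lipases had narrower ranges than LIPG and ANGPTL4. PNPLA2, on chromosome 11 from 818902 to 825216, stood at 1357 scaled counts in siSET, 1066 in siCIP2A, 1429 in siNT, 1123 in OP449 and 1331 in PBS, from 793 to 1206 reads. It was 1.34-fold higher in its highest library, siNT, than in its lowest, siCIP2A, and only the step between PBS and OP449 in the order of its levels had an interval that excluded equality. Of genes above the floor and detected in every library, 48.1% had a wider range.

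LIPE, on the minus strand of chromosome 19 from 42905667 to 42931578, stood at 61.6 scaled counts in siSET, 44.2 in siCIP2A, 65.2 in siNT, 82.5 in OP449 and 91.8 in PBS, from 36 to 81 reads. No neighbours in that order differed beyond counting error, and siCIP2A and PBS, at its ends, were 2.08-fold apart with a log2 ratio of -1.06 [-1.64 to -0.49]. Of genes above the floor and detected in every library, 4.27% had a wider range than LIPE. The antisense gene LIPE-AS1 lies on the opposite strand, and in GENCODE v29 500 of 5206 exonic bases of LIPE are exonic in both. Since the sources used here do not state whether strand was counted, reads from those bases cannot be told apart.

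CPT1A, on the minus strand of chromosome 11 from 68522353 to 68609399, stood at 920 scaled counts in siSET, 896 in siCIP2A, 890 in siNT, 1653 in OP449 and 849 in PBS. These came from 538, 811, 751, 1283 and 749 reads. The OP449 library stood apart from the other 4, which could not be told apart from their neighbours in the order. The step from OP449 to the next library, siSET, was 0.84 [0.70 to 0.99] on the log2 scale.

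Levels can be compared between genes only per length, and a GENCODE transcript whose genomic span matched the deposited one within 100 bases was at hand for ANGPTL4, LIPE and CPT1A. Averaged over the libraries, CPT1A had 199 scaled counts per kilobase of transcript, ANGPTL4 37.6 and LIPE 18.1. CPT1A was the highest of the 3 in every library. ANGPTL4 exceeded LIPE in OP449, at 87.8 against 21.6 per kilobase, in siCIP2A, at 55.2 against 11.6, and in siNT, at 25.2 against 17.1. It was below LIPE in siSET, at 10.01 against 16.2 per kilobase, and in PBS, at 9.65 against 24.1.

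The first comparison asks what silencing SET does to these genes. LIPG was 1.59-fold higher in siSET than in siNT, a log2 fold on log2(value + 1) of 0.67 [0.36 to 0.98], and the ratio to PBS was 0.32 [0.03 to 0.61]. ANGPTL4 was lower in siSET than in siNT, 18.8 against 47.4 scaled counts, at -1.29 [-2.44 to -0.34], but could not be told apart from PBS at this depth, at 0.05. The fold of ANGPTL4 thus depends on the control used, and siNT itself stood 2.61-fold above PBS. PNPLA2 (-0.08 [-0.21 to 0.06]), LIPE (-0.08 [-0.73 to 0.55]) and CPT1A (0.05 [-0.11 to 0.21]) had intervals that included equality.

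Genes with a mean of at least 50 scaled counts in the libraries compared passed the floor, and those 2-fold apart or more were counted. By that rule none of the 4 members past the floor was counted in siSET against siNT, where 0.394% of 6084 genes were higher and 0.789% lower. ANGPTL4, at a mean of 33.1, was below the floor.

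The second comparison asks the same of CIP2A. LIPG was 3.64-fold lower in siCIP2A than in siNT, at -1.84 [-2.35 to -1.39], the 3rd lowest of 6102 genes past the floor. ANGPTL4 was 2.19-fold higher, at 1.11 [0.58 to 1.70]. PNPLA2 was 1.34-fold lower, with 1066 scaled counts against 1429, at -0.42 [-0.55 to -0.30], the 384th lowest. LIPE stood at -0.55 [-1.19 to 0.05] and CPT1A at 0.01 [-0.14 to 0.15].

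Of the 5 members, 1 was at least 2-fold higher and 1 at least 2-fold lower, beside 0.475% and 0.639% of all genes past the floor. LIPG and ANGPTL4 had been chosen with this contrast known, so these counts and ranks carry no test. ANGPTL4 passed the floor, at a mean of 75.6, only through siCIP2A. With PBS as the control, LIPG stood at -2.19 [-2.69 to -1.76], ANGPTL4 at 2.45 [1.74 to 3.38], PNPLA2 at -0.32 [-0.45 to -0.20] and LIPE at -1.04 [-1.64 to -0.49]. LIPE thus passed a fold of 2 against PBS and not against siNT. In siCIP2A against PBS, a fold of 2 was reached upwards by 0.41% of 6101 genes and downwards by 0.705%.

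The 2 siRNA libraries were on opposite sides of siNT for both secreted proteins. LIPG stood at 313 scaled counts in siSET against 54.1 in siCIP2A, at 2.51 [2.07 to 3.02], the 2nd highest of 6098 genes. ANGPTL4 stood at 18.8 in siSET against 104 in siCIP2A, at -2.40 [-3.51 to -1.56], the lowest of these genes. It rests on 11 reads in siSET and passed the floor, at a mean of 61.3, only through siCIP2A. LIPG and ANGPTL4 were chosen for large differences in these libraries, so their ranks carry no test. PNPLA2 stood at 0.35 [0.21 to 0.49], and LIPE, at 0.47 [-0.21 to 1.17], and CPT1A, at 0.04 [-0.12 to 0.20], had intervals that included equality. At least 2-fold, 0.82% of all genes were higher in siSET and 0.853% lower.

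The third comparison asks what 12 hours of OP449 do. ANGPTL4 was 9.09-fold higher in OP449 than in PBS, 165 against 18.1 scaled counts, at 3.12 [2.43 to 4.03], the 2nd highest of 6096 genes. It passed the floor, at a mean of 91.5, only through OP449. LIPG was 2.31-fold lower, 108 against 251, at -1.20 [-1.59 to -0.84], the 7th lowest. CPT1A was 1.95-fold higher, 1653 against 849, at 0.96 [0.83 to 1.09], the 21st highest. PNPLA2 was 1.18-fold lower, at -0.24 [-0.37 to -0.12], and LIPE stood at -0.15 [-0.65 to 0.34].

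Of the 5 members, 1 was at least 2-fold higher and 1 at least 2-fold lower, beside 0.295% of all genes in each direction. They were ANGPTL4 and LIPG, both chosen with this contrast known, so the counts and ranks carry no test. CPT1A lay just under a fold of 2, and the choice of transcript decided its side. Its other row, which differs at the 3′ end and shares reads with the first, stood at 703 scaled counts in OP449 against 349 in PBS, 2.01-fold higher, at 1.01 [0.81 to 1.22]. In the siRNA comparisons both CPT1A rows had intervals that included equality. The 2 rows of ANGPTL4 held almost the same reads, with 123 in OP449 and 15 in PBS for the shorter isoform against 128 and 16 for the longer, and gave like folds, 3.15 and 3.12.

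Set side by side, siCIP2A against siNT and OP449 against PBS share no library, and in both LIPG was lower, ANGPTL4 higher and PNPLA2 lower with intervals that excluded equality. Of 6034 genes past the floor in both, 10.8% had both intervals on the same side of equality, and LIPG and ANGPTL4 had been chosen with these contrasts known. CPT1A was higher in OP449 only, at 0.96 against PBS, and stood at 0.01 in siCIP2A against siNT. The intervals of these 2 folds, [0.83 to 1.09] and [-0.14 to 0.15], did not overlap, as for 23.2% of these genes. The times differ as well, 12 hours for OP449 and 48 hours for the siRNAs. In siSET against siNT, LIPG and ANGPTL4 stood on the opposite side from OP449 against PBS. For ANGPTL4 the pair of siSET and siNT was below the floor, with a mean of 33.1. With PBS as the control, siSET stood at 0.05 [-1.20 to 1.25] for ANGPTL4 and at 0.32 [0.03 to 0.61] for LIPG.

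**Figure D2:**
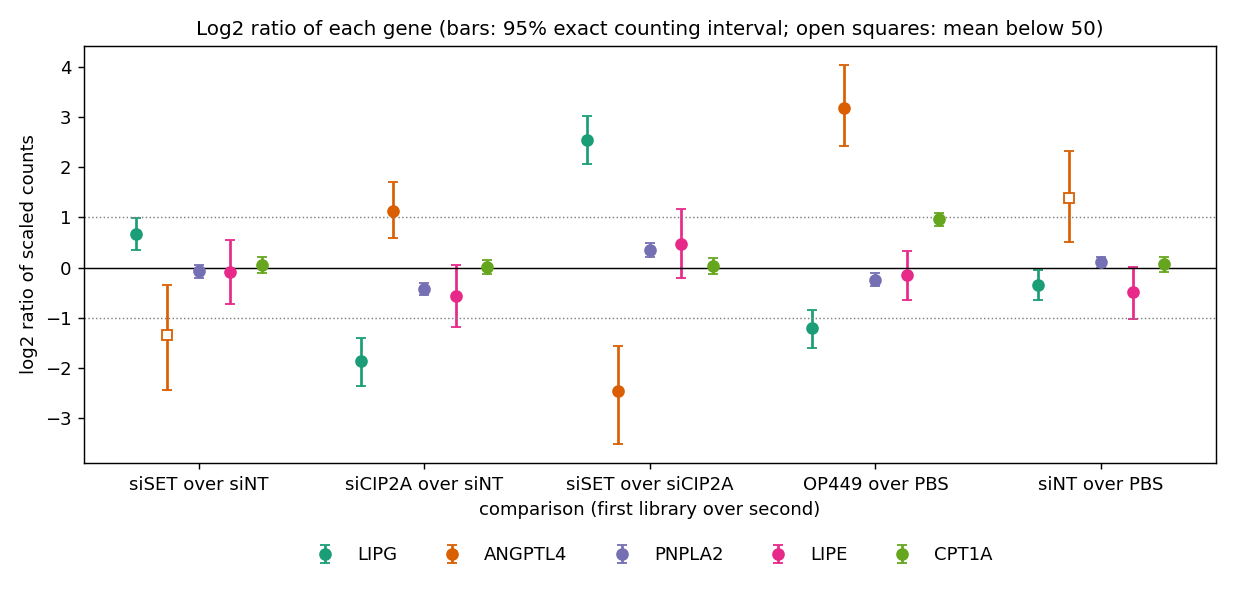
Log2 ratio of scaled counts without a pseudocount (vertical axis) of each gene in 5 comparisons, first library over second, with 95% exact counting intervals as bars. Filled circles have a mean of at least 50 scaled counts over the 2 libraries, open squares less, and dotted lines mark a fold of 2. LIPG and ANGPTL4 lie on opposite sides of 0 in every comparison, and CPT1A leaves 0 only in OP449 over PBS.

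The controls, which differ in time as well as in treatment, were compared as the background. In siNT against PBS, ANGPTL4 stood at 47.4 scaled counts against 18.1, at 1.34 [0.52 to 2.32], below the floor with a mean of 32.8. LIPG stood at 197 against 251, at -0.35 [-0.65 to -0.05]. The control siRNA library was thus above PBS for the inhibitor and below it for endothelial lipase. LIPE stood at -0.49 [-1.02 to 0.02], PNPLA2 at 0.10 [-0.01 to 0.22] and CPT1A at 0.07 [-0.08 to 0.22]. None of the 4 members past the floor was counted, beside 0.247% of all genes higher and 0.148% lower.

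The profile nearest to that of LIPG among 6093 genes with a mean of at least 50 was that of SCD, the fatty acid desaturase. SCD stood at 13596 scaled counts in siSET, 2607 in siCIP2A, 8853 in siNT, 4782 in OP449 and 14804 in PBS, and its log2 profile, centred over the 5 libraries, had a root mean square difference of 0.16 from that of LIPG. The order of the 2 genes differed only between siSET and PBS. The next nearest, CX3CL1, a membrane-bound chemokine, and VCAM1, an adhesion molecule, were at 0.38 and 0.40. The likeness is over 5 libraries that share controls, and is a description.

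ANGPTL4 had no neighbour as near. CYP1A1, a xenobiotic-metabolizing cytochrome and the best known target of the aryl hydrocarbon receptor, was the nearest at 0.54, with 41.1 scaled counts in siSET, 121 in siCIP2A, 58.1 in siNT, 451 in OP449 and 19.3 in PBS. By value both genes were highest in OP449, then siCIP2A, siNT, siSET and PBS. For ANGPTL4 siSET and PBS could not be told apart, at 0.05 [-1.20 to 1.25]. The order of CYP1A1 was not set against counting error, so the shared order is only partly resolved. SHISA2 followed at 0.58 and PEAR1 at 0.75.

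**Figure D3:**
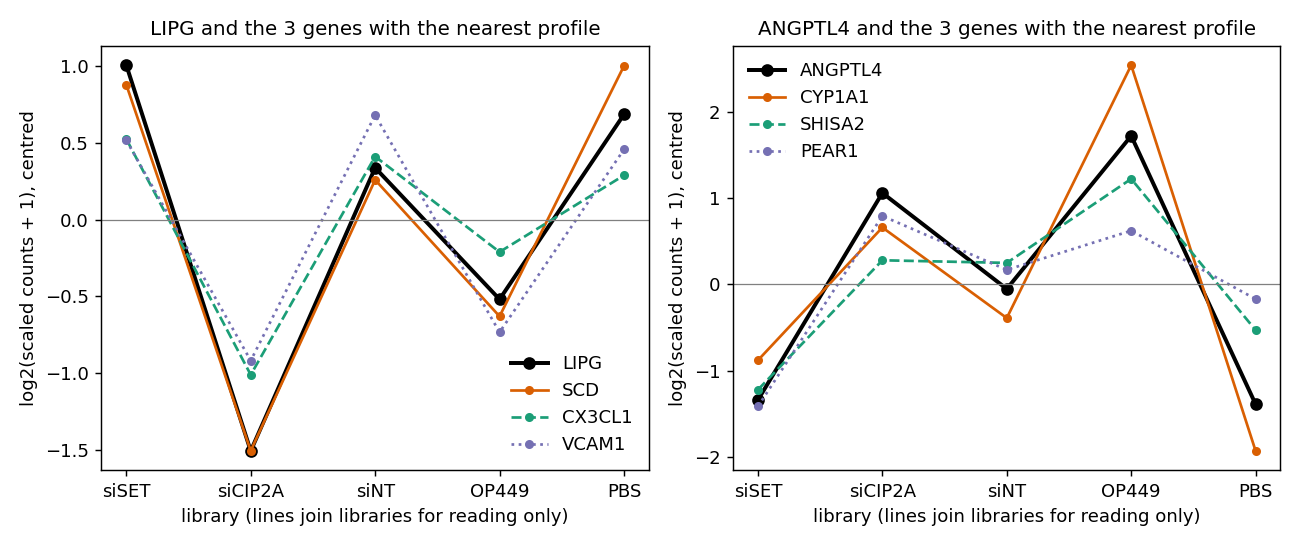
Centred log2(scaled counts + 1) over the 5 libraries for LIPG (left) and ANGPTL4 (right), each in black with the 3 genes of nearest profile in colour. SCD lies 0.16 from LIPG by root mean square difference, and CYP1A1 0.54 from ANGPTL4.

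The other 3 members vary less, so that more genes lie close to them. Nearest to PNPLA2 were ST3GAL4, OAT and ARFIP2, at 0.03 each. Nearest to LIPE were ASAP3 at 0.06, KHK, which encodes fructokinase, at 0.07 and CDCA3 at 0.08. Nearest to CPT1A were CASC5, a kinetochore gene now named KNL1, at 0.09, and CHAC2 and ZNF397 at 0.12. CASC5, like CPT1A, was highest in OP449, with 747 scaled counts against 452 in PBS, and stood at 424 to 465 in the siRNA libraries.

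The remaining genes of lipid breakdown were described from 7 lists, each without the 5 members. In siSET, siCIP2A and siNT against their controls and in OP449 against PBS, none of the genes past the floor on these lists was 2-fold higher or lower, and the list medians lay between -0.25 and 0.33, beside medians of -0.0041 to 0.020 over all genes.

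Among extracellular lipases and their regulators, 14 of 17 genes were in the table and 5 passed the floor. These were LIPA, SEL1L, FURIN, PCSK7 and SORL1, so the medians of this list rest on no extracellular lipase. LIPA, the lysosomal acid lipase, stood at 2448 scaled counts in siSET, 1569 in siCIP2A, 1430 in siNT, 1564 in OP449 and 1756 in PBS. It was 1.71-fold higher in siSET than in siNT, at 0.77 [0.66 to 0.89], and stood at -0.17 [-0.28 to -0.06] in OP449 against PBS. APOA5, which promotes triglyceride hydrolysis in plasma, and APOC2, the cofactor of lipoprotein lipase, had 0 reads in all 5 libraries, and the hepatic lipase gene LIPC stood at 0 to 1.29 scaled counts. FURIN and PCSK7, proprotein convertases of the family that cleaves ANGPTL4 and endothelial lipase, stood in siCIP2A at -0.23 [-0.34 to -0.13] and -0.36 [-0.60 to -0.12] against siNT. Against PBS, a library of another time and treatment, they stood at 0.09 [-0.02 to 0.20] and 0.03 [-0.22 to 0.29], where both intervals included equality. LMF1, a lipase maturation factor, stood at 26.1 to 48.6 scaled counts.

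Among lipid droplet and intracellular lipolysis genes, 14 of 24 were in the table and 9 passed the floor. In OP449 against PBS, 7 were higher and 2 lower, 5 and 1 of them with an interval that excluded equality, and the median was 0.19. Over all genes past the floor 19.3% had an interval above equality and 16.9% below. G0S2, the direct inhibitor of PNPLA2, stood at 1398 scaled counts in OP449 against 1081 in PBS, at 0.37 [0.24 to 0.50], and at 1530 in siCIP2A against 1113 in siNT, at 0.46 [0.34 to 0.58]. In siSET it stood at 0.15 [0.01 to 0.29] against siNT. The lipase inhibitor was thus higher, and PNPLA2 lower, in both OP449 and siCIP2A.

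Among other droplet genes, SOAT1, which makes cholesteryl esters, stood at 0.50 [0.40 to 0.60] in siCIP2A against siNT and at 0.19 [0.10 to 0.29] in OP449 against PBS. With PBS as the control, SOAT1 stood at 0.17 [0.07 to 0.26] in siCIP2A and at -0.33 [-0.43 to -0.23] in siNT. DGAT2, which makes triglycerides, stood at 0.44 [0.03 to 0.86] in OP449, and the seipin gene BSCL2 at -0.34 [-0.54 to -0.15]. In siCIP2A the list's median was 0.18, with 6 higher and 3 lower, 4 and 2 of them with an interval that excluded equality, beside 21.3% and 20.2% of all genes. PLIN1, PLIN4 and PLIN5, perilipins of adipose tissue, muscle and other oxidative tissues, stood at 0 to 16.6 scaled counts, whereas PLIN3, the widely expressed perilipin, stood at 3170 to 3837.

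Of 15 genes of the carnitine shuttle and fatty acid activation, 6 were in the table and 5 passed the floor. CPT2, which acts after CPT1A on the inner mitochondrial membrane, stood at 324 scaled counts in siCIP2A against 228 in siNT, at 0.51 [0.24 to 0.78]. ACSL5, an acyl-CoA synthetase, stood at 0.35 [0.25 to 0.44] in siCIP2A against siNT, at -0.25 [-0.36 to -0.13] in siSET against siNT, and at 0.26 [0.16 to 0.37] in OP449 against PBS. In siSET against PBS it stood at -0.05 [-0.17 to 0.07]. ACACB, whose malonyl-CoA product inhibits CPT1A, was lower than siNT in both siRNA libraries, at -0.90 [-1.44 to -0.41] in siSET and -0.74 [-1.18 to -0.33] in siCIP2A, which share siNT. Against PBS it stood at -0.52 in siSET and -0.36 [-0.82 to 0.08] in siCIP2A, where the interval included equality, and at -0.20 [-0.65 to 0.25] in OP449 against PBS. The medians were -0.25 in siSET, 0.10 in siCIP2A and -0.20 in OP449. CPT1C, the neuronal relative of CPT1A, lay below the floor in these pairs of libraries, with 67.0 scaled counts in OP449 against 30.6 in PBS, from 52 and 27 reads, and 23.2 in siCIP2A against 56.9 in siNT, from 21 and 48 reads. Both differences were at least 2-fold.

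Of 20 mitochondrial fatty acid oxidation genes, 14 were in the table and all 14 passed the floor. In siSET against siNT, 10 were higher and 4 lower, 7 and 0 of them with an interval that excluded equality, beside 19.8% of all genes in each direction, and the median was 0.16. In siCIP2A, 8 were higher and 6 lower, 6 and 1 of them with an interval that excluded equality, beside 21.3% and 20.2% of all genes, with a median of 0.11. The short-chain dehydrogenase gene ACADS stood at 0.45 [0.03 to 0.88] in siSET and 0.73 [0.38 to 1.11] in siCIP2A, and against PBS at 0.23 [-0.17 to 0.63] and 0.51 [0.18 to 0.86], so the siSET interval then included equality. HADHB, the beta subunit of the trifunctional protein, stood at 0.42 [0.26 to 0.58] in siSET and 0.47 [0.32 to 0.61] in siCIP2A against siNT. In OP449 against PBS, 6 were higher and 8 lower, 2 and 1 of them by that measure, beside 19.3% and 16.9% of all genes, with a median of -0.02. There ACADS stood at -0.61 [-1.06 to -0.18] and the thiolase gene ACAA2 at 0.48 [0.22 to 0.74].

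Of 14 peroxisomal oxidation genes 6 were in the table and 4 passed the floor, with medians of -0.01 in siSET, -0.07 in siCIP2A and 0.02 in OP449. Of 31 other PPAR receptors, partners and target genes, 18 were in the table and 12 passed the floor. The genes of PPAR alpha, delta and gamma were not among those found, and RXRG was at 0 in all 5 libraries. The medians of this list thus rest on coregulators and target genes and on no PPAR receptor. In OP449 against PBS 7 of these were higher and 5 lower, with a median of 0.05, and 3 and 2 of them had an interval that excluded equality, near the 19.3% and 16.9% of all genes. The thioredoxin inhibitor gene TXNIP stood at 0.72 [0.67 to 0.77] and the mitochondrial carrier gene UCP2 at -0.51 [-0.71 to -0.32]. The PPAR targets ACADVL, ACADM and HADHA are on the mitochondrial oxidation list as well. CYP4A11, a PPAR alpha target of liver, had 0 reads in all 5 libraries. UCP2 stood at 919 scaled counts in siSET against 489 in siNT, at 0.91 [0.72 to 1.10], and at 0.01 [-0.18 to 0.21] in siCIP2A against siNT. In PBS it stood at 637, below siSET and above siNT and siCIP2A, at 494, so these folds depend on the control. TXNIP stood at 0.73 [0.67 to 0.79] in siSET and 0.80 [0.74 to 0.85] in siCIP2A against siNT.

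Of 24 genes of cAMP and insulin control of lipolysis, 20 were in the table and 14 passed the floor, with medians of 0.01 in siSET and -0.03 in siCIP2A against siNT and of -0.02 in OP449 against PBS. PDE4B, a cAMP phosphodiesterase, was the only gene past the floor on the 7 lists that was at least 2-fold apart in any of the 5 comparisons. It stood at 183 scaled counts in siSET against 78.4 in siCIP2A, at 1.21 [0.78 to 1.68]. Against siNT it stood at 0.46 [0.07 to 0.86] in siSET, where the interval against PBS, [-0.09 to 0.67], included equality, and at -0.75 [-1.21 to -0.32] in siCIP2A, and in OP449 against PBS at -0.41 [-0.82 to -0.02]. FOXO1, a transcription factor that raises PNPLA2 transcription in adipocytes, stood at 0.70 [0.27 to 1.14] in siSET against siNT. The beta-adrenergic receptor gene ADRB1 stood at 0 to 3.42 scaled counts, and PDE3B, through which insulin restrains lipolysis in adipocytes, at 2.21 to 15.5.

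**Figure D4:**
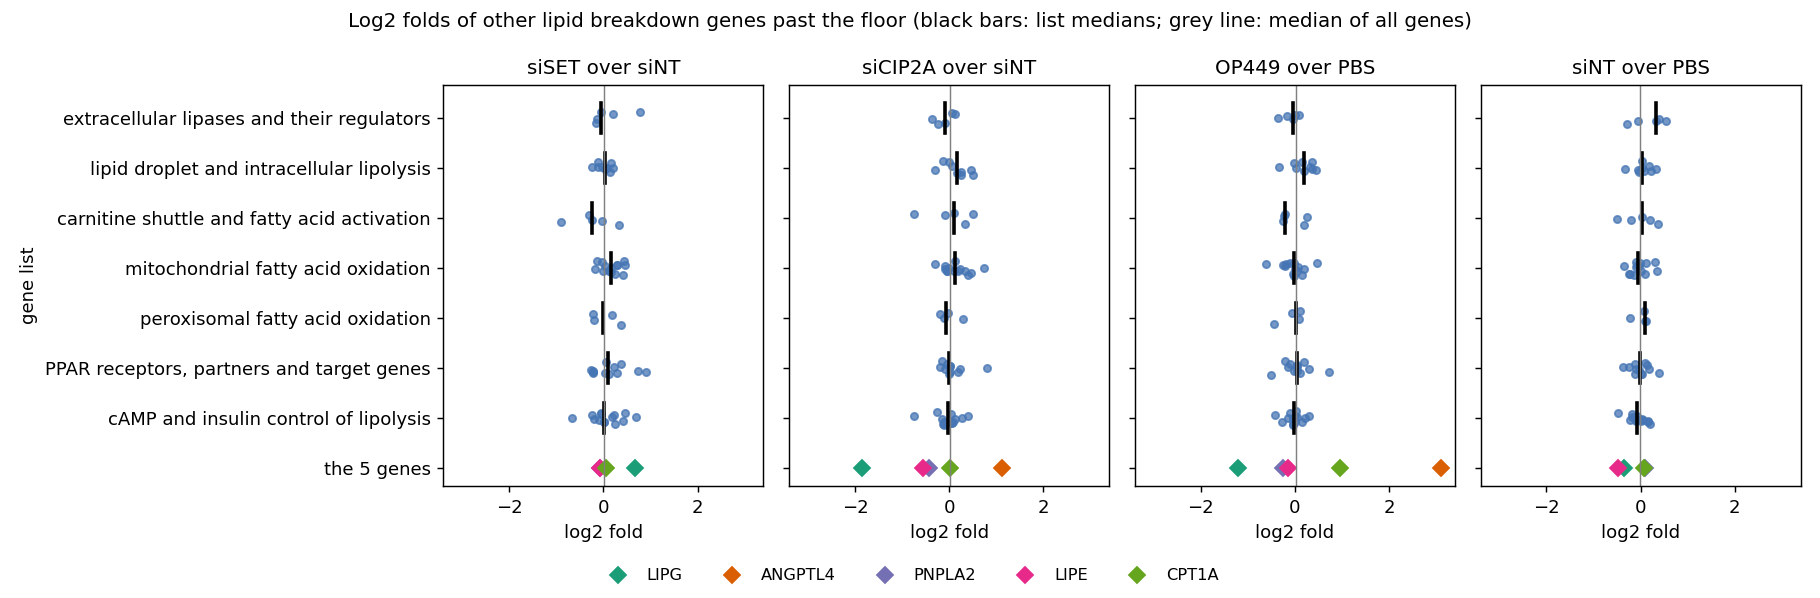
Log2 folds on log2(scaled counts + 1) (horizontal axes) of the genes of 7 lists past the floor (blue points), with each list's median as a black bar, in 4 comparisons, first library over second. Diamonds in the lowest row are the members past the floor, and the grey line is the median of all genes. The list medians lie between -0.25 and 0.33, and no list gene past the floor is 2-fold apart in these comparisons. LIPG and ANGPTL4, single genes that reach -1.84 and 3.12, were chosen for large differences in these libraries.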

How the data were processed

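Per the labels' protocols, cDNA of 5 MDA-MB-231 samples was made with oligo-dT and read on an Illumina GAII. The submitters' processing notes name hg19, CASAVA and Bowtie 1.0.0, and the sources used here do not give the counter or the scaling. Signal values were deposited per RefSeq transcript, as read counts that the authors had scaled per library. All values (100%) in each library were multiples of its lowest value above 0, within 0.001 reads, so whole reads were recovered, a read being worth 1.10 to 1.71 scaled counts. The table held 16383 transcript rows from part of the genome, and 14 symbols turned into dates were restored through accessions.

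Log2 folds used log2(value + 1), and ratios had 95% exact Clopper-Pearson intervals. Their calculation was checked on simulated libraries with reads drawn by counting error alone, which says nothing of the spread between real libraries. PCR reads are not independent molecules, so intervals and floors cover counting error only. The floor was a mean of 50 scaled counts over the 2 libraries compared. Named genes were the members, up to 4 genes per list and comparison with the largest folds, any gene at least 2-fold apart, and the 3 nearest profiles per member. Genes named at 0 or below the floor were added after their values were seen. Members and lists were chosen with earlier results of these data known. Alternatives were a pseudocount of 10, equal totals, median of ratios, equal upper quartiles, PBS as control, other transcript rows, floors of 20 and 200 or none, a fold of 1.5 and an interval excluding equality. An exact binomial test was added after seeing the data. Python 3.11.15, scipy 1.17.1 and pandas 2.3.3 were used.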

Additional observations from a re-analysis of the deposited data

How the results depend on the processing

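Of 130 folds of the 5 members under alternatives, 127 stayed inside their counting interval. The rest all came with PBS as the control of the siRNA libraries, the only alternative that brought in another library. There ANGPTL4 in siSET stood at 0.050, against -1.29 with siNT, LIPG in siSET at 0.32 and ANGPTL4 in siCIP2A at 2.45. The cause was not tested. Rescaling moved the median of all genes by at most 0.03 on the log2 scale.

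The counts of genes at least 2-fold apart were 72 in siSET and 68 in siCIP2A against siNT, 102 between siSET and siCIP2A, 36 in OP449 against PBS and 24 in siNT against PBS. In that order they were 115, 110, 157, 71 and 51 with a floor of 20, 32, 27, 47, 14 and 6 with a floor of 200, 954, 877, 972, 780 and 813 with no floor, and 435, 371, 508, 229 and 184 at a fold of 1.5. The exact binomial test of recovered reads, with Benjamini-Hochberg adjustment at 0.05 and the same floor, called 1825, 2055, 2073, 1653 and 1604, and compares libraries, not conditions. With PBS as the control the siSET count was 40, and with a pseudocount of 10 the count of siNT against PBS was 15.

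Of 259 list medians under alternatives, 253 moved by no more than the median absolute deviation of the list's members. Against PBS the extracellular lipase list stood at 0.26 in siSET and the peroxisomal list at 0.032 in siCIP2A. Without a floor the extracellular list stood at 0 in siNT against PBS. The carnitine list in OP449 stood at -0.0077 with a floor of 20 and with none, and at -0.024 with a floor of 200. No paired analysis was possible because each group has 1 library, so no replicate could be left out either. ANGPTL4 rests on 11 reads in siSET and 16 in PBS, and LIPE on 36 to 81 reads, which limits what can be seen in them.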
